A study of Mus musculus with 6 samples.

Results

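The genes described here encode receptors for extracellular nucleotides and adenosine, and enzymes that remove these ligands, in bone-marrow-derived macrophages (BMDMs). The 10 members are P2ry2, P2ry6, P2ry12, P2ry13, P2rx4, P2rx7, Adora2a, Adora2b, Entpd1 and Ada, and they were taken from the expression table by gene symbol, whatever their values. They are 10 of 54532 genes listed, and all 10 were among the 12755 genes tested, which reached 1 TPM in 2 or more libraries. Because the low members could pass that minimum through a single group, the number tested is not a result.

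BMDMs of C57BL/6 mice were grown in culture from bone marrow in medium conditioned by L929 cells, and RNA-seq was performed on 3 groups of 2 libraries, A and B. The groups were untreated BMDMs, BMDMs given lipopolysaccharide (LPS), a bacterial cell-wall component sensed by TLR4, at 100 ng/ml for 2 h (LPS), and BMDMs given metformin at 5 mM for 6 h before the same LPS stimulation (Met + LPS). The study asked how metformin, a drug for type-2 diabetes that inhibits mitochondrial complex I, alters the acute response to LPS, and no library received metformin alone. Cells were seeded in duplicate and no source used here says that A and B came from separate mice, so that p-values measure only the spread between these libraries, which may be technical.

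ATP and related nucleotides leave stressed or dying cells and act on neighbours through P2Y receptors, which couple to G proteins, and P2X receptors, which are ion channels opened by ATP. Surface enzymes degrade the nucleotides stepwise to adenosine, which acts on its own G protein-coupled receptors. In macrophages the ATP channel P2X7 is known for its part in activating the NLRP3 inflammasome, whereas the adenosine receptors A2a and A2b, which raise cAMP, are known for restraining inflammatory output.

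Values are given as TPM, read counts divided by gene length and scaled to a common total per library, so that levels of different genes are compared per length. The libraries held 25457016 to 30762754 reads on genes, as recovered from the TPM values. All 7 macrophage markers were at 1 TPM or more in every library, and their summed level was 43710 to 45600 TPM in untreated, 34526 to 35264 TPM in LPS and 28763 to 28884 TPM in Met + LPS libraries. Most of that sum was Lyz2, at mean levels of 34912, 26835 and 21292 TPM, and its change after LPS was -0.38 on the log2 scale as deposited and 0.15 after rescaling. In Met + LPS against LPS, Lyz2 differed by -0.33 as deposited and -0.32 after rescaling. There the 7 markers ranged from -1.14 (Fcgr1) to 0.003 (Cd68) as deposited, and from -1.12 to 0.02 after rescaling. Markers of B cells, fibroblasts and dendritic cells summed to at most 0.515, 0.806 and 2.13 TPM, and T cell markers, nearly all of it Cd4, to at most 6.92 TPM. In bulk RNA, a lower share of cells that express a gene and less RNA per cell cannot be told apart.

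Of the 10 members, 8 had at least 1 promoter entry in RefSeq for GRCm38.p6, spanning 250 bases before to 50 bases after a start site. P2ry6 and Adora2a had none. The promoters of Adora2b and P2ry2, the members with an entry that rose most after LPS, and of P2rx7, which fell most, are printed 5′ to 3′ on the strand of the gene, with capitals marking a match to a searched motif. The stretches are chr11:62248734-62249033 on the plus strand for Adora2b, chr7:101011949-101012248 on the minus strand for P2ry2 and chr5:122643677-122643976 on the plus strand for P2rx7.
Adora2b: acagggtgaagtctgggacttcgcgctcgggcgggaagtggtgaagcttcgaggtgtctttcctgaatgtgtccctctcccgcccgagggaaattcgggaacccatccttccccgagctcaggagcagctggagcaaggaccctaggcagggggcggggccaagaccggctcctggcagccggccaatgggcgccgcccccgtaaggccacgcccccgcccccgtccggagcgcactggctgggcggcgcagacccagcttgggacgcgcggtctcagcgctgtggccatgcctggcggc
P2ry2: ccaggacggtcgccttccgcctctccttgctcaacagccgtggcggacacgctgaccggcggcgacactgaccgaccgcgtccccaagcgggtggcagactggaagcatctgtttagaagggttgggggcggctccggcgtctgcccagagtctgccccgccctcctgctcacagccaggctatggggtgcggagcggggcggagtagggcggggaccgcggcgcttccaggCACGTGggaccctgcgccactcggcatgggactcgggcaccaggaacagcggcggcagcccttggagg
P2rx7: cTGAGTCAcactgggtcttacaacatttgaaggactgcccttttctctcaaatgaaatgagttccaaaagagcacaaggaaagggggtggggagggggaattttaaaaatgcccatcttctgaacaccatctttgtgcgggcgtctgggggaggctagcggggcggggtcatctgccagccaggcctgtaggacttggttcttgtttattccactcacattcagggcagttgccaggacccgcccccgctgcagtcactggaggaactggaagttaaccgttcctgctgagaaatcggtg
The P2ry2 promoter holds the E-box CACGTG at positions -18 to -13 counted from its start site as 0, and 7.15% of all 32851 promoters of that length hold one. The P2rx7 promoter holds TGAGTCA, a match to the AP-1 motif TGANTCA found in 7.81% of all promoters, at positions -249 to -243. The Adora2b promoter holds none of the 7 motifs searched, so it is printed without capitals. Both strands were searched for these 2 motifs, for the CRE motif TGACGTCA (1.79% of all promoters), the ISRE motif TTTCNNTTTC (3.44%), the GAS motif TTCNNNGAA (8.30%), the PU.1 motif GAGGAAGT (3.20%) and, by name, the κB motif (4.51%). The other matches were an E-box at -228 to -223 for P2ry12, a GAS match at -90 to -82 for Ada, the same E-box in another P2ry2 entry at 37 to 42 and a PU.1 match at 3 to 10 in another P2rx7 entry. No member's entry held a κB, CRE or ISRE match, which says only that these letters were not found in these windows.

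Adora2a, Adora2b and P2ry2 rose after LPS, and none of the 10 members fell past the cut-offs. The cut-offs were a log2 fold change of at least 2 in either direction with a limma adjusted p-value below 0.01, and 3.72% of all tested genes rose and 2.37% fell past them. By the adjusted p-value alone, 3 members rose, 4 fell (P2rx4, P2rx7, Entpd1, Ada) and 3 did not pass, while 16.2% of all tested genes rose and 60.1% fell. The median log2 fold change was -0.18 over the members and -0.48 over all tested genes. Because TPM libraries share a common total, this all-gene shift depends on scaling. After rescaling each library by its median ratio over genes, the medians were 0.32 and -0.01, 5 members rose and 2 fell by the adjusted p-value, beside 30.6% and 27.6% of all tested genes, and the genes past both cut-offs were 663 higher and 129 lower in place of 474 and 302.

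Adora2a (chromosome 10, 75316877 to 75334784, GRCm38, plus strand) encodes the A2a receptor, the adenosine receptor of high affinity that couples to Gs. It was at 0.472 and 0.182 TPM in the untreated libraries, 62.9 and 63.0 TPM in the LPS libraries and 40.6 and 44.1 TPM in the Met + LPS libraries. The untreated libraries were near zero, with 11 and 4 reads, against 1466 and 1408 reads in the LPS libraries, and no 2 groups overlapped. The mean rose 192-fold after LPS, from 0.327 ± 0.205 to 63.0 ± 0.0802 TPM (SD, n = 2), a ratio that rests on the few untreated reads. On the log2(TPM + 1) scale, which understates changes of low genes, the rise was 5.60 ± 0.11 (SE; limma, adjusted p = 5.3e-08), and Adora2a ranked 55 from the top of 12755 genes.

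Adora2b (chromosome 11, 62248984 to 62266453, plus strand) encodes the A2b receptor, which also couples to Gs but needs more adenosine. Its level was 3.49 and 3.71 TPM in untreated, 42.9 and 35.1 TPM in LPS and 39.4 and 43.0 TPM in Met + LPS libraries. Both groups given LPS stood well above the untreated one, and their own values overlapped. The rise after LPS was 10.8-fold in mean TPM, against 49 reads in each untreated library, or 3.11 ± 0.10 on the log2 scale (limma, adjusted p = 5.2e-07).

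**Figure D1:**
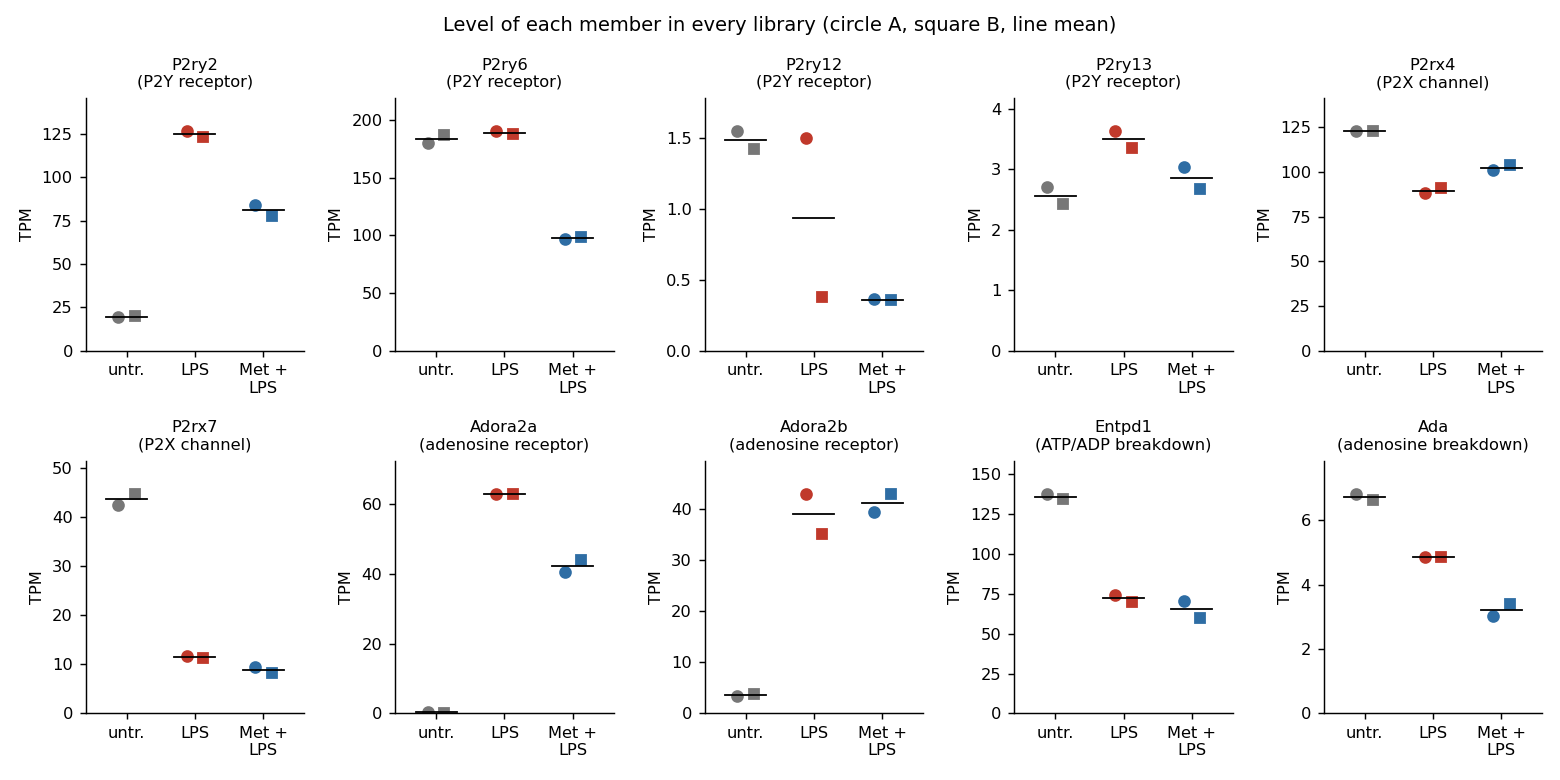
TPM (y axis, from 0) of each of the 10 members in the untreated, LPS and Met + LPS groups, with a circle for library A, a square for library B and a line at the mean of the 2 libraries. Adora2a rises from under 0.5 TPM to 62.9 and 63.0 TPM after LPS, P2ry6 is near 190 TPM after LPS and near 98 TPM in Met + LPS, and the 2 LPS libraries of P2ry12 lie far apart.

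The order of the 2 Gs-coupled adenosine receptors turned over. Adora2a stood at 0.135 and 0.0492 times the Adora2b level in the untreated libraries, at 1.46 and 1.79 times in the LPS libraries and at 1.03 times in both Met + LPS libraries. The ratio was thus lowest without LPS, highest with LPS alone, and did not overlap between groups. With 2 libraries against 2 the smallest p that an exact two-sided permutation test can give is 0.333, and this was its value for the ratio in Met + LPS against LPS. Of the other adenosine receptors, Adora1 was at 0 in every library, and Adora3 stayed under 1 TPM, at 0.494, 0.524, 0.810, 0.478, 0.0710 and 0 TPM in the order of the groups. The summed TPM of the adenosine receptors was 4.46 and 4.41 in untreated, 107 and 98.6 in LPS, and 80.0 and 87.1 in Met + LPS libraries.

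P2ry2 (chromosome 7, 100996568 to 101012866, minus strand) encodes the P2Y2 receptor for ATP and UTP. It was at 19.2 and 20.1 TPM in untreated, 127 and 123 TPM in LPS and 84.1 and 78.0 TPM in Met + LPS libraries. All 3 groups were apart, with the Met + LPS libraries between the other groups. P2ry2 rose 6.36-fold in mean TPM after LPS (log2 2.61 ± 0.05, limma adjusted p = 5.5e-08), which put it 299 from the top of all tested genes.

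P2ry6 (chromosome 7, 100937630 to 100974649, minus strand), the neighbour of P2ry2, encodes the UDP receptor P2Y6. Its level was 181 and 187 TPM in untreated, 191 and 188 TPM in LPS and 96.8 and 98.3 TPM in Met + LPS libraries. The LPS libraries lay just above the untreated ones, and the Met + LPS libraries were far below both. The difference between LPS and untreated was 0.04 on the log2 scale (95% interval -0.04 to 0.12, limma adjusted p = 0.288), and after rescaling it was 0.57 with adjusted p = 9.5e-06. In untreated BMDMs P2ry6 was 9.39 and 9.31 times as abundant as P2ry2 per length, and after LPS 1.50 and 1.52 times.

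P2ry13 and P2ry12 encode receptors for ADP that couple to Gi, and P2ry12 is a known marker of microglia. Both lie on the minus strand of chromosome 3, at 59207892 to 59210882 and 59216272 to 59262871, inside Med12l, which is on the opposite strand. Med12l itself had 1 to 6 reads per library, and whether the counting used strand is not given in the sources used here. P2ry13 was at 2.71 and 2.43 TPM in untreated, 3.64 and 3.36 TPM in LPS and 3.04 and 2.68 TPM in Met + LPS libraries, on 44 to 70 reads. Its LPS libraries were the highest, but the difference from untreated was 0.34 with adjusted p = 0.0195 (limma), and after rescaling 0.72 with adjusted p = 8.2e-04.

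P2ry12 rested on 7 to 30 reads per library. It was at 1.55 and 1.43 TPM in untreated, 1.50 and 0.377 TPM in LPS and 0.364 and 0.355 TPM in Met + LPS libraries. LPS library A matched the untreated level and LPS library B the Met + LPS level, and the exact 95% Poisson intervals of their reads, 19.4 to 41.6 and 2.81 to 14.4, did not overlap. Such intervals cover counting error only. The log2 difference between LPS and untreated was -0.42 (95% interval -1.08 to 0.24, limma adjusted p = 0.189). It was 0.01 without LPS library B and -0.85 without LPS library A, where the adjusted p was 0.0062, so the sign and the call both turned on a single library.

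P2rx7 (chromosome 5, 122643911 to 122691432, plus strand) encodes the P2X7 channel, which opens at high ATP. Its level was 42.6 and 44.8 TPM in untreated, 11.6 and 11.3 TPM in LPS and 9.40 and 8.29 TPM in Met + LPS libraries. The untreated libraries stood alone at the top. Mean TPM was 3.80-fold lower after LPS, and P2rx7 fell by 1.84 on the log2 scale (SE 0.07, limma adjusted p = 1.1e-06), just short of the fold cut-off. It ranked 436 from the bottom of all tested genes, and after rescaling the change was -1.33.

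P2rx4 (chromosome 5, 122707544 to 122729738, plus strand), next to P2rx7, encodes the more ATP-sensitive P2X4 channel. It was at 123.1 and 122.9 TPM in untreated, 88.4 and 90.9 TPM in LPS and 101 and 104 TPM in Met + LPS libraries. The 3 groups did not overlap, and LPS was the lowest. P2rx4 fell by 0.45 on the log2 scale after LPS (SE 0.03, limma adjusted p = 2.5e-05), close to the all-gene median, and after rescaling the difference turned to 0.07 with adjusted p = 0.117. The P2rx4 level was 2.89 and 2.74 times the P2rx7 level in untreated, 7.59 and 8.01 times in LPS and 10.8 and 12.5 times in Met + LPS libraries, a ratio that scaling does not touch, with an exact two-sided permutation p of 0.333 for LPS against untreated.

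Entpd1 (chromosome 19, 40612366 to 40741602, plus strand) encodes CD39, the surface enzyme that converts ATP and ADP to AMP. It was at 137.8 and 134.1 TPM in untreated, 74.5 and 70.0 TPM in LPS and 70.3 and 60.0 TPM in Met + LPS libraries. Both groups given LPS lay below the untreated libraries, and their own values overlapped. Entpd1 fell by 0.90 on the log2 scale after LPS (SE 0.08, limma adjusted p = 3.8e-05), a 1.88-fold lower mean TPM, and by 0.38 after rescaling with adjusted p = 0.0037. Nt5e, which encodes the enzyme CD73 that acts after CD39 and yields adenosine, had at most 3 reads in any library (up to 0.0478 TPM).

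Ada (chromosome 2, 163726584 to 163750239, minus strand) encodes adenosine deaminase, which converts adenosine to inosine. It was at 6.83 and 6.62 TPM in untreated, 4.86 TPM in both LPS and 3.04 and 3.39 TPM in Met + LPS libraries. The levels stepped down from group to group without overlap. Ada fell by 0.40 on the log2 scale after LPS (SE 0.08, limma adjusted p = 0.0030). This call was lost when any 1 of the 4 compared libraries was left out (adjusted p 0.0151 to 0.0252), and after rescaling the difference was 0.05.

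**Figure D2:**
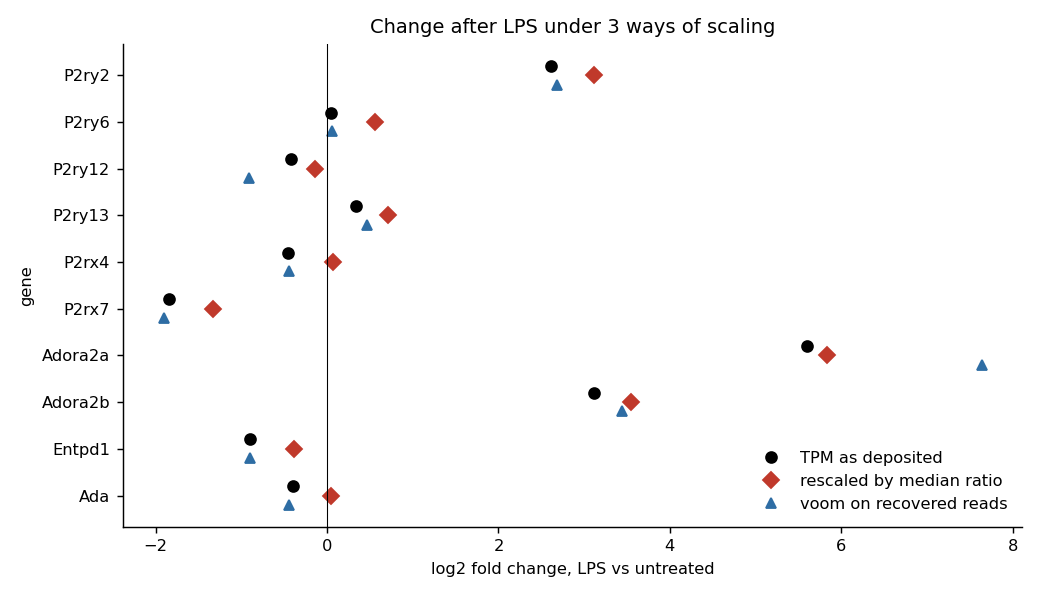
Log2 fold change of each member in LPS against untreated BMDMs (x axis) from TPM as deposited (black circles), TPM rescaled by the median ratio (red diamonds) and voom on recovered reads (blue triangles). Adora2a, Adora2b and P2ry2 are above 2.6 under all 3, P2rx7 and Entpd1 are below 0 under all 3, and P2rx4 and Ada move from -0.45 and -0.40 to 0.07 and 0.05 with rescaling.

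Metformin before LPS was followed by lower P2ry6, and no member was higher past the cut-offs. Here the fold cut-off was a log2 change of 0.7 with an adjusted p-value under 0.01, and 4.19% of all tested genes rose and 4.09% fell past both. By the adjusted p-value alone 1 member rose (P2rx4) and 5 fell (P2ry2, P2ry6, P2rx7, Adora2a and Ada), while 14.5% of all tested genes rose and 18.0% fell. The median log2 difference was -0.40 over the members and -0.03 over all tested genes, and rescaling left these at -0.40 and -0.02. This comparison uses the same LPS libraries as the one with untreated BMDMs, so the changes in the 2 comparisons are not independent.

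P2ry6 fell by 0.95 on the log2 scale (SE 0.03, limma adjusted p = 1.1e-05), from 189 ± 2.01 to 97.6 ± 1.05 TPM, and ranked 273 from the bottom of all tested genes. P2ry2 fell by 0.62 (SE 0.05, adjusted p = 1.6e-04 in limma), and its Met + LPS level was 64.8% of the LPS level. P2ry2 and P2ry6 were thus both lower in Met + LPS. These 2 calls by p-value remained when any 1 library was left out, with adjusted p-values of at most 3.7e-04 for P2ry6 and 0.0023 for P2ry2.

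Adora2a fell by 0.56 (SE 0.11, limma adjusted p = 0.0053), a Met + LPS level 67.3% of the LPS level. Adora2b differed by 0.08 (95% interval -0.16 to 0.32, adjusted p = 0.537 in limma), from 39.0 ± 5.52 to 41.2 ± 2.56 TPM (SD, n = 2). Ada fell by 0.48 (SE 0.08, adjusted p = 0.0033) and P2rx7 by 0.35 (SE 0.07, adjusted p = 0.0065), both in limma. P2rx4 was the member that rose, by 0.19 (SE 0.03, limma adjusted p = 0.0041), a 1.14-fold higher mean. The p-values of these 4 changed genes sat near the cut-off. With 1 of the 4 compared libraries left out, Adora2a and P2rx4 passed in none of 4 fits (adjusted p 0.0222 to 0.0403 and 0.0129 to 0.0237) and Ada and P2rx7 in 1 of 4 each (0.0088 to 0.0192 and 0.0063 to 0.0371), with the direction kept in each.

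The members without a call in this comparison were P2ry12, P2ry13, Adora2b and Entpd1. Entpd1 differed by -0.15 (95% interval -0.33 to 0.03) and P2ry13 by -0.22 (95% interval -0.47 to 0.02). P2ry12 differed by -0.45 with an interval of -1.11 to 0.21, and it again depended on the LPS library used, at -0.02 without LPS library A and -0.88 without LPS library B.

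**Figure D3:**
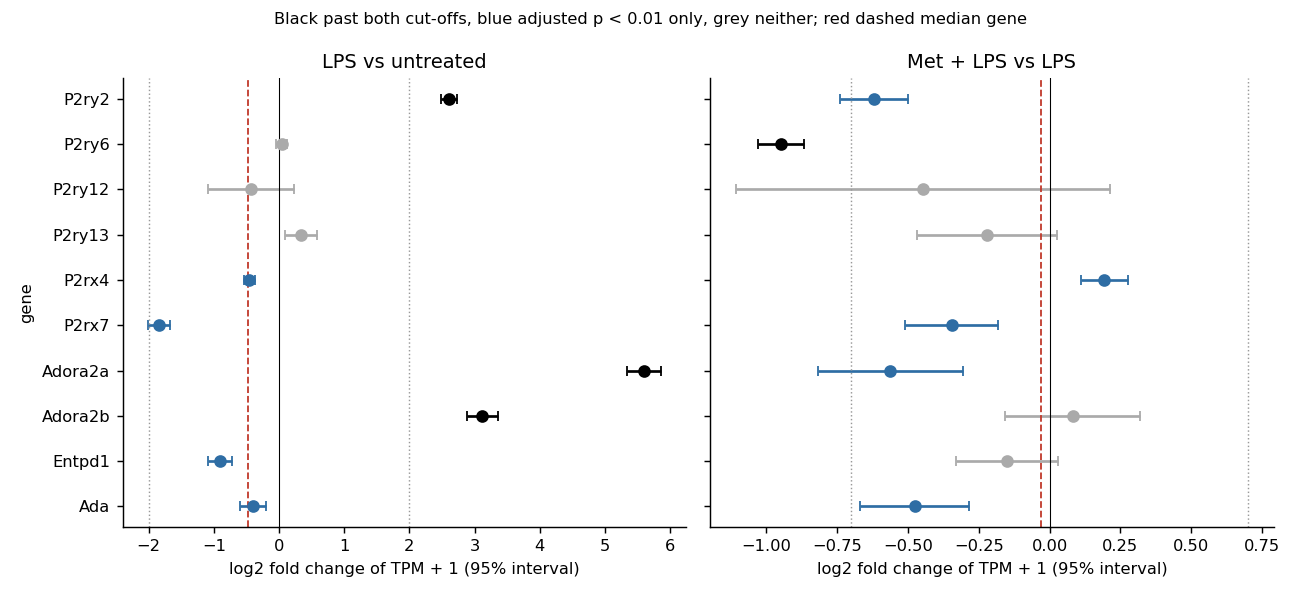
Log2 fold change of TPM + 1 for each member with its 95% interval (bars), in LPS against untreated (left) and Met + LPS against LPS (right), where dotted lines mark the fold cut-offs and the red dashed line the median tested gene (-0.48 and -0.03). Black points passed both cut-offs, blue the adjusted p-value alone and grey neither, and P2ry6 is the single black point on the right, at -0.95. The blue points of P2rx4 and Ada on the left turn to 0.07 and 0.05 with rescaled libraries.

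Set against untreated BMDMs, Met + LPS still showed the high adenosine receptors and the low P2rx7. Past a log2 change of 2 and the adjusted p-value, 2 members were higher (Adora2a at 5.04 and Adora2b at 3.20) and 1 lower (P2rx7 at -2.18), beside 3.18% of all tested genes higher and 2.16% lower. P2ry2 lay just under the fold cut-off at 1.99, and with rescaling it was past it at 2.51 while P2rx7, at -1.67, was not. By the adjusted p-value alone 3 members were higher and 5 lower (P2ry6, P2rx4, P2rx7, Entpd1 and Ada), beside 16.3% and 58.8% of all tested genes. With rescaled libraries 5 members were higher (P2ry2, P2ry13, P2rx4, Adora2a and Adora2b) and 4 lower, beside 33.4% and 29.7% of all tested genes. The median was -0.57 over the members and -0.48 over all genes, and -0.05 and 0.00 after rescaling. As deposited, P2ry6 was at 53.0% of its untreated level (limma log2 difference -0.91, adjusted p = 1.2e-06), Entpd1 at 47.9% (-1.05) and Ada at 47.8% (-0.88). After rescaling these differences were smaller, at -0.37 for P2ry6, -0.52 for Entpd1 and -0.43 for Ada. P2rx4 differed by -0.26, which turned to 0.28 after rescaling. P2ry13, at 0.11 with adjusted p = 0.338, overlapped between these groups, and after rescaling it was at 0.50 with adjusted p = 0.0042 (limma).

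The ranking of the members by level per length changed with LPS. In untreated BMDMs it ran P2ry6, Entpd1, P2rx4, P2rx7, P2ry2, Ada, Adora2b, P2ry13, P2ry12 and Adora2a, from high to low. After LPS it ran P2ry6, P2ry2, P2rx4, Entpd1, Adora2a, Adora2b, P2rx7, Ada, P2ry13 and P2ry12. In Met + LPS it ran as in LPS except that P2rx4 moved to the top, above P2ry6 and P2ry2. Neighbours in each order had no overlapping libraries, apart from Adora2a and Adora2b in Met + LPS. Ada and P2ry13 in Met + LPS nearly met, both at 3.04 TPM in library A, on 46 and 58 reads, so their order is not resolved.

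Over a wider list of 61 genes of nucleotide and adenosine receptors, nucleotide breakdown, adenosine uptake and conversion, ATP release and cAMP signalling, which includes the members, 46 were tested. After LPS 7 rose and 1 fell past both cut-offs (7 and 0 after rescaling). In Met + LPS against LPS 3 were higher and 1 lower (3 and 2 after rescaling). Of all tested genes 3.72% rose and 2.37% fell past both after LPS, and 4.19% and 4.09% in Met + LPS against LPS. After rescaling, 663 and 129 of the 12755 tested genes did so after LPS, and 576 and 513 in Met + LPS against LPS. By the adjusted p-value alone the counts among the 46 were 12 and 26, and 7 and 15. With rescaled libraries they were 19 and 13, and 7 and 15. The 12 and 26 are 26.1% and 56.5% of the 46, against 16.2% and 60.1% of all tested genes, and the rescaled 19 and 13 are 41.3% and 28.3%, against 30.6% and 27.6%. In Met + LPS against LPS, 15.2% and 32.6% stood against 14.5% and 18.0%. P2ry1, which encodes the P2Y1 receptor for ADP, was the one that fell after LPS. It was at 23.9 and 22.1 TPM in untreated, 3.83 and 3.54 TPM in LPS and 13.3 and 12.5 TPM in Met + LPS libraries. P2ry1 fell by 2.36 on the log2 scale after LPS (limma adjusted p = 4.1e-07), a change of -1.88 after rescaling that is short of the fold cut-off, and in Met + LPS it was 1.57 higher than in LPS (adjusted p = 2.0e-05), the opposite of P2ry2 and P2ry6 there. Only 77.0% of the 31-base stretches of P2ry1 are its own, the rest shared mainly with the overlapping Gm37035, which had 0 to 2 reads per library, so its value is uncertain to that extent.

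The other genes past the cut-offs after LPS, beside the 3 members, acted in adenosine handling, ATP release or cAMP breakdown. Pnp, which encodes purine nucleoside phosphorylase and acts after Ada, rose by 2.02 on the log2 scale (limma adjusted p = 7.8e-08), with 73.6% of its 31-base stretches its own and the rest shared mainly with Pnp2. Ampd3, an AMP deaminase, rose by 2.17, Gja1, the gap junction and hemichannel protein connexin 43, by 4.10 and Pde4b, a cAMP phosphodiesterase, by 4.63. Of all 10 genes of adenosine uptake and conversion, 3 rose and 5 fell by the adjusted p-value after LPS, and 5 rose and 2 fell after rescaling. Beside these counts, 16.2% of all tested genes rose and 60.1% fell, and 30.6% and 27.6% after rescaling. Of 18 tested genes of cAMP signalling, 3 rose and 12 fell, and 6 rose and 7 fell after rescaling. The 12 are 66.7% of the 18, near the 60.1% of all tested genes that fell, and the rescaled shares of 33.3% and 38.9% stand against 30.6% and 27.6%. As deposited, the median log2 change after LPS was -0.23 for the former list and -0.54 for the latter, beside -0.48 over all tested genes. These medians depend on scaling. After rescaling the all-gene median was -0.01, both list medians were higher, and that of adenosine uptake and conversion turned positive. In Met + LPS against LPS both scalings gave 1 higher and 4 lower of the former list (10.0% and 40.0%). Both gave 3 higher and 7 lower of the latter (16.7% and 38.9%). The shares of all tested genes were 14.5% and 18.0%, and 15.6% and 17.4% after rescaling.

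In Met + LPS against LPS, Pde3b, another cAMP phosphodiesterase, was higher by 1.07 (limma adjusted p = 1.9e-04) and Rapgef3, which encodes the cAMP sensor Epac1, by 1.38 (adjusted p = 1.7e-04). Adcy3, also of the cAMP signalling list, was lower, at -0.69 (limma adjusted p = 0.0026), just short of the fold cut-off. After rescaling Adcy3 passed both cut-offs, at -0.70. Pde3b was at 3.48 and 3.22 TPM in untreated, 1.903 and 1.849 TPM in LPS and 5.15 and 4.88 TPM in Met + LPS libraries. Rapgef3 was at 3.76 and 3.37, 0.456 and 0.476, and 2.65 and 3.01 TPM in the same order. Its mean TPM was 6.08-fold higher in Met + LPS than in LPS, a ratio that rests on 22 reads in each LPS library. LPS was thus the lowest group for Pde3b and Rapgef3, as for P2ry1. The sum of the 3 mast cell markers, nearly all of it Kit, moved the same way, at 20.6 to 21.1, 8.00 to 8.18 and 23.2 to 24.4 TPM. Mcpt4 was at 0 in every library. Cpa3, at means of 1.24, 0.134 and 0.280 TPM, stayed under its untreated level in Met + LPS, whereas Kit was above its own. The 5 granulocyte markers summed to 27.2 to 30.9, 24.4 to 25.8 and 40.2 to 42.0 TPM, with Ly6g at 0 in 5 of 6 libraries. Whether mast cells or granulocytes were present, and any part of theirs in the values of P2ry1, Pde3b and Rapgef3, was not tested.

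**Figure D4:**
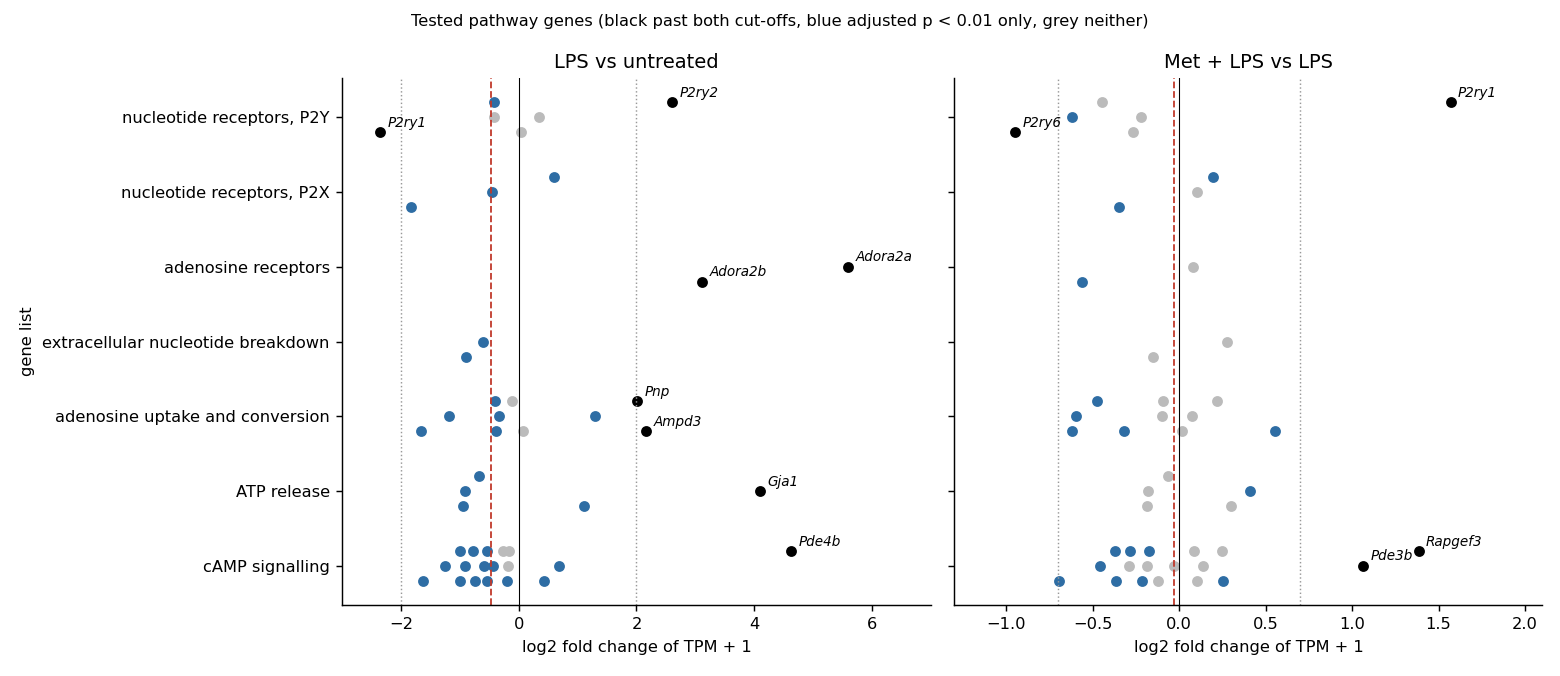
Log2 fold change of TPM + 1 (x axis) for the 46 tested genes of the wider list, by group of genes (y axis), in LPS against untreated (left) and Met + LPS against LPS (right), with dotted lines at the fold cut-offs and the red dashed line at the median tested gene. Named black points passed both cut-offs, and P2ry1 lies at -2.36 on the left and 1.57 on the right.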

How the data were processed

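RNA-seq of poly-A RNA from 6 BMDM libraries was analysed, 2 per group by the labels. The authors deposited TPM values for 54532 genes, without pooling replicates. Per the labels, reads were processed with STAR 2.6.1d, SAMtools 1.9 and featureCounts (Subread 1.6.3) on GRCm38, and the authors tested counts with DESeq2. How counts became TPM and whether strand was used are not given in the sources used here. TPM hides differences in total RNA per cell and lets a few abundant genes lower all others.

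The 12755 genes that reached 1 TPM in 2 or more libraries were tested on log2(TPM + 1) by limma 3.58.1 (R 4.3.3), with all 6 libraries, no covariate (3 residual degrees of freedom), a mean-variance trend in eBayes and Benjamini-Hochberg adjustment over all tested genes. Cut-offs were an adjusted p-value under 0.01 and an absolute log2 fold change of 2 against untreated or 0.7 against LPS. Reads were recovered from TPM and GENCODE exon lengths of the same build for 54495 genes. Between 96.12% and 96.34% of values above 0 were whole to within the tolerance of 0.02 reads. They served for limma voom and for exact Poisson intervals.

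Members, lists and cut-offs were chosen with earlier results of these data known. All members are named, and of the wider list every gene past the cut-offs after LPS or in Met + LPS against LPS. For the largest rise and the largest fall, the 3 tested genes outside the lists that lay nearest in log2 profile are named. The alternatives tried were no filter on low values, a minimum of 5 TPM, a pseudocount of 0.1, median-ratio rescaling, the compared groups only, a replicate block, no trend, an adjusted p-value of 0.05, a log2 cut-off of 1, voom with both scalings, and leaving out each library. Python 3.11.15 (numpy 2.4.6, pandas 2.3.3, scipy 1.17.1, matplotlib 3.10.9) gave the other values.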

Additional observations from a re-analysis of the deposited data

How the results depend on the processing

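Of the values of the members recomputed under the alternatives, 423 kept their direction and their joint call, meaning both cut-offs passed or not both. Of the rest, 9 newly passed both cut-offs, 3 no longer passed both and 8 reversed. A change of side of the adjusted p-value alone is not in this tally. With rescaling, the log2 change after LPS turned to 0.070 for P2rx4 (0.070 in voom) and to 0.048 for Ada (0.059 in voom), and the change of P2rx4 in Met + LPS against untreated turned to 0.28 in both fits. Without LPS library B, P2ry12 after LPS was 0.0055 (leave-one-out range -0.85 to 0.0055) and Adora2b in Met + LPS against LPS was -0.060 (range -0.060 to 0.22). With a log2 cut-off of 1, the members called were 0 in place of 1 in Met + LPS against LPS and 5 in place of 3 in Met + LPS against untreated. In LPS against untreated, P2rx7 also passed at that cut-off as a fall, at -1.84 (limma adjusted p = 1.1e-06). Over all tested genes the 776 calls after LPS became 1512 with a pseudocount of 0.1, 3556 with a log2 cut-off of 1, 1595 with voom and 1378 with rescaled voom. The 682 calls in Met + LPS against untreated became 1457, 3714, 1562 and 1299 in the same order, and the 1056 in Met + LPS against LPS became 455 with a log2 cut-off of 1. By p-value alone, 4 members lost their call in Met + LPS against LPS under some alternatives. The adjusted p of Adora2a was 0.165 with a pseudocount of 0.1, 0.0272 without a filter and 0.0159 without a trend. That of P2rx7 was 0.0236 without a filter, 0.0158 without a trend and 0.0139 with the compared groups only. That of P2rx4 was 0.0213 without a trend and 0.0110 with the compared groups only, and that of Ada was 0.0162 without a filter, 0.0123 in voom and 0.0140 in rescaled voom. After LPS, Ada had 0.0121 without a filter and 0.0144 in voom. In Met + LPS against untreated, it had 0.0119 in rescaled voom, and P2ry12 newly passed with the compared groups only (0.0017) and in voom (0.0011). The cause was not tested. Libraries of the same letter did not deviate together (r = -0.0037, 0.028 and 0.0062 between groups over genes). With the letter as a replicate block the members called were 3, 1 and 3 and the genes 777, 1044 and 682, and the adjusted p of P2rx7 in Met + LPS against LPS was 0.0107. Depth limits P2ry12, P2ry13, Ada and the untreated levels of Adora2a and Adora2b, which rest on at most 104 reads.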

Other observations

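Profiles were compared as log2(TPM + 1) levels, each relative to the untreated mean, over the 4 libraries given LPS. Only tested genes outside the lists of members, wider pathway genes and cell type markers were considered. Nearest to Adora2a were Marcksl1, Jdp2 and Tmem200b, at Euclidean distances of 0.141, 0.278 and 0.351. Marcksl1, which encodes an actin-binding substrate of protein kinase C, rose by 5.62 on the log2 scale after LPS, and Jdp2, a bZIP repressor that binds AP-1 sites, by 5.51. For P2rx7 the nearest genes outside the lists were Il6ra, Cfap97 and Ska2, at distances of 0.0725, 0.108 and 0.127. Il6ra, which encodes the binding chain of the IL-6 receptor, differed by -1.85 after LPS and by -0.37 in Met + LPS against LPS. These likenesses rest on few libraries and are descriptions.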
